A study of Rattus norvegicus with 9 samples.

Results

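The genes described here encode the enzymes and regulators with which a rat cell makes cholesterol and fatty acids. They are 31 genes of the 20442 in the deposited expression table, listed by symbol: 6 enzymes of the mevalonate steps, 11 enzymes that lead from squalene to cholesterol, 4 regulators of the sterol regulatory element-binding proteins (SREBPs), 7 enzymes that supply acetyl-CoA or NADPH or build and desaturate fatty acids, and 3 other genes tied to the same regulators. All 31 were present, and 29 of them reached 1 FPKM (a read count divided by gene length and library depth) in at least 3 libraries, as did 11141 genes of the table.

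RNA was sequenced from 9 cultures of bone marrow-derived dendritic cells from wild-type rats, grown in 10% serum with GM-CSF and IL-4 at 20 ng/mL each. LPS+EVs cultures (n = 3) received lipopolysaccharide (LPS), an endotoxin of bacterial cell walls, together with extracellular vesicles (EVs) from ASCs, as the labels abbreviate the source cells. LPS cultures (n = 3) received LPS without EVs, and Control cultures (n = 3) are labelled as given no treatment. The protocol gives LPS at 1 µg/mL, a duration of 24 h and, without naming what it was, something at 50 ng/mL. Whether this second agent is the EVs, and which groups received it, is not stated, so in comparisons with Control it cannot be told apart from LPS. The replicates are labelled biological, but no label ties them to separate animals, and p-values therefore cover no more than the variation among these cultures.

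Cells make cholesterol from acetyl-CoA through mevalonate and squalene, and they make fatty acids from the same acetyl-CoA with NADPH as reductant. Both routes are switched on by the SREBPs, transcription factors held in the endoplasmic reticulum by the Insig proteins while sterols are plentiful and carried to the Golgi by Scap for release when sterols run short. Myeloid cells that sense LPS through Toll-like receptors are known to remodel both routes, and dendritic cells draw on fatty acid synthesis to enlarge the membranes of their secretory pathway.

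Fatty acid synthesis had the largest differences among these genes: Fasn was 13.6-fold lower in mean FPKM in LPS cultures than in Control cultures, Scd 8.29-fold lower and Acaca 5.79-fold lower. Without Control replicate 1, whose Scd level was far above the others, these folds were 12.5 for Fasn, 4.53 for Scd and 5.44 for Acaca. In cholesterol synthesis 6 of 16 tested enzymes fell (37.5%, beside 28.7% of all genes tested), 5 of them by less than a factor of 2 and Dhcr7 by 4.91-fold. Under median-of-ratios scaling 2 of the 16 fell, Dhcr7 and Mvk (12.5%, beside 20.3% of all genes), and without Control replicate 1 the same 2 (12.5%, beside 19.9%). The calls of the other 4, Fdps, Idi1, Cyp51 and Ebp, were each lost when single libraries were left out. Insig1, the sterol-dependent brake on the SREBPs, rose to 3.42 times its Control level while Srebf1 and Srebf2 fell. The Srebf2 call, unlike those of Insig1 and Srebf1, was lost under median-of-ratios scaling and when some single libraries were left out. In LPS+EVs against LPS, none of the 29 tested genes was called at the threshold used, beside 0% of all 11141 genes tested. This result therefore does not set the lipid synthesis genes apart. It also does not show that EVs left them unchanged.

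Reads assigned to genes numbered 32148519 to 39407116 per library, a 1.23-fold range, and the members had between 9 reads (Elovl6 in LPS replicate 3) and 10365 reads (Insig1 in LPS+EVs replicate 1) in a treated library. The libraries numbered 2 stood apart within each group on the second principal component, which held 21% of the variance. Control replicate 1 was the highest Control library for 28 of the 31 members (90.3%), against 35.9% of all genes tested, so results that rest on it are given without it as well. Of 10 dendritic cell markers, Itgax averaged 34.5, 38.8 and 40.4 FPKM in LPS+EVs, LPS and Control, and Zbtb46 2.43, 2.22 and 1.81 FPKM. Flt3 averaged 0.0616 FPKM or less in each group. Among the 9 tested, 2 rose in LPS against Control (Cd80 and Ccr7) and 0 fell by limma, beside 12.3% and 28.7% of all genes. RT1-Da was not called, at 352 ± 505 FPKM in LPS and 696 ± 681 FPKM in Control (SD, n = 3 each). Markers of dividing cells fell in 7 of 7 genes in LPS against Control, with summed levels of 55.1 to 111 FPKM in LPS and 367 to 400 FPKM in Control. The same sums were 51.6 to 69.8 FPKM in LPS+EVs. Monocyte and macrophage markers fell in 5 of 8 genes and rose in 2, with sums of 3680 to 7053 FPKM in LPS and 6747 to 8654 FPKM in Control. Neutrophil and precursor markers summed to 1.87 to 15.9 FPKM in LPS+EVs, 1.1 to 5.39 in LPS and 29.6 to 252 in Control. Erythroid markers summed to 3.67 to 8.79 FPKM in LPS+EVs, 4.88 to 9.58 in LPS and 54 to 437 in Control. The 4 adipocyte markers matched by symbol are of a cell type rich in these enzymes. They summed to 28.7 to 37.9 FPKM in LPS+EVs, 26.5 to 36.7 in LPS and 36 to 52.1 in Control. These sums were mostly Cfd and Cidea, which were called in opposite directions in LPS against Control. Cfd averaged 13.9 FPKM in LPS and 37.8 in Control, and its call was lost under median-of-ratios scaling. Cidea averaged 16.3 FPKM in LPS and 8.23 in Control. Cidec averaged 0.09 FPKM or less in each group, and the defining marker Plin1 was at 0 in LPS and Control. The part of these markers in the results below was not tested, and in bulk RNA fewer cells of a type and less RNA per cell cannot be told apart.

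In the comparison of LPS with Control, 12 of the 29 tested genes fell (41.4%) and 1 rose (3.45%), where 28.7% of all genes tested fell and 12.3% rose (limma with Benjamini-Hochberg adjustment, threshold 0.05). The median difference of the members was -0.54 on the log2(FPKM + 1) scale, beside -0.19 for all genes. Median-of-ratios scaling moved the median of all genes to 0.01, and the members' median then stood at -0.37. Under that scaling 7 members fell (24.1%), beside 20.3% of all genes, and 1 rose beside 18.3%. Without Control replicate 1, 6 members fell (20.7%), beside 19.9% of all genes, 1 rose beside 8.28%, and the medians were -0.35 and -0.18. The count of falling genes is therefore near the background in both of these settings. Without LPS replicate 1, 7 members fell (24.1%) and 1 rose, beside 23.8% and 8.93% of all genes, and without LPS replicate 3 there were also 7 and 1, beside 28.5% and 11.3%. With the replicate number as a block 18 members fell (62.1%), beside 35.5% of all genes, and 1 rose beside 17.2%. Block and median-of-ratios scaling together gave 8 falling members (27.6%), beside 25.6%, and 2 rising ones (6.9%), beside 24.7%. The groups did not overlap for 20 members, 19 lower and 1 higher in LPS (65.5% and 3.45%), where 37.6% and 17.5% of all genes tested did not overlap.

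**Figure D1:**
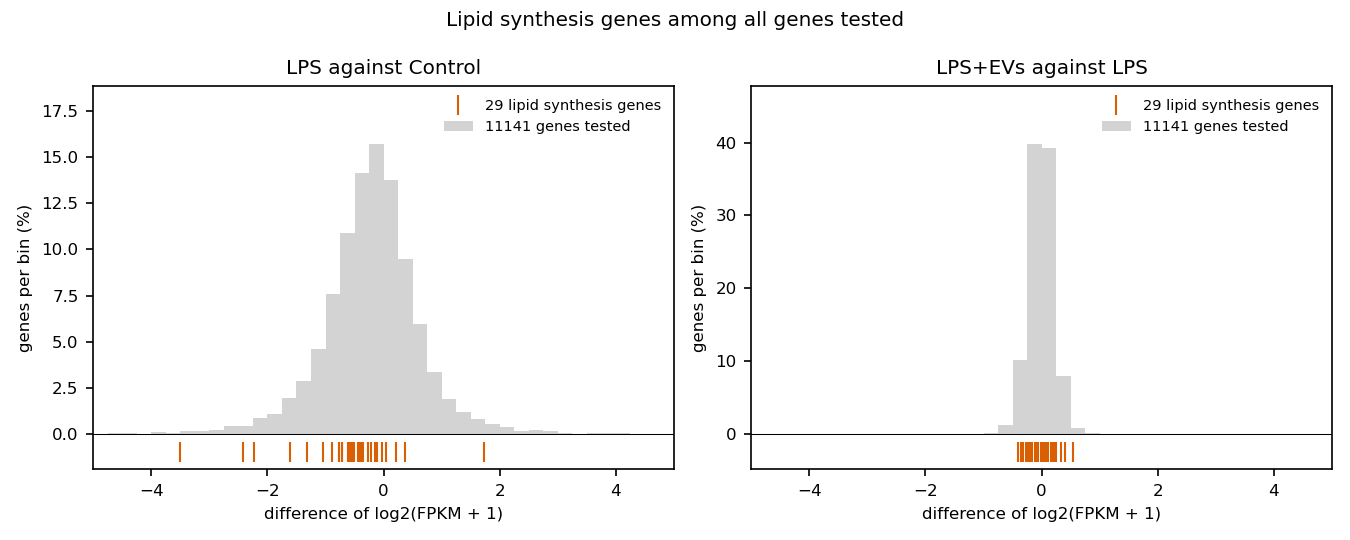
Histograms of the fitted log2(FPKM + 1) difference of all 11141 genes tested (grey bars, percent of genes per bin) with the 29 tested lipid synthesis genes as orange ticks, for LPS against Control (left) and LPS+EVs against LPS (right). In LPS against Control the ticks run from -3.50 (Fasn) to 1.73 (Insig1) with a median of -0.54, and in LPS+EVs against LPS they lie between -0.41 and 0.54.

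Among the regulators, Srebf1 encodes the SREBP that mainly drives fatty acid synthesis. Srebf1 had 8.67, 10.2 and 10.8 FPKM in LPS+EVs, 9.67, 9.54 and 10 FPKM in LPS, and 27.8, 19.5 and 17.1 FPKM in Control. All 6 treated libraries lay below the lowest Control library, and the LPS libraries were within 1.05-fold of each other. Srebf1 fell in LPS against Control by 1.04 on the log2 scale (SE 0.18, adjusted p = 0.00216 by limma), 2.2-fold in mean FPKM.

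Srebf2 encodes the SREBP that mainly drives cholesterol synthesis. Srebf2 had 14.3, 20.6 and 20.2 FPKM in LPS+EVs, 14.9, 18.5 and 15.5 FPKM in LPS, and 26, 25.8 and 20.8 FPKM in Control. The LPS libraries lay below every Control library, but the highest LPS+EVs library came within 1 FPKM of the lowest Control library. Srebf2 fell in LPS by -0.54 (SE 0.17, limma adjusted p = 0.0309). The adjusted p was 0.101 without Control replicate 1, 0.091 without Control replicate 2, 0.0929 without LPS replicate 1 and 0.0719 without LPS replicate 3, and the call was also lost under median-of-ratios scaling.

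Insig1 encodes a membrane protein that retains the SREBPs in the endoplasmic reticulum and is itself an SREBP target. Insig1 had 71.5, 36.2 and 54.1 FPKM in LPS+EVs, 54.7, 38.7 and 58.9 FPKM in LPS, and 16.5, 9.84 and 18.2 FPKM in Control. The library numbered 2 was the lowest of its group in each group, and every treated library was still above every Control library. Insig1 was the member that rose in LPS, by 1.73 on the log2 scale (SE 0.30, limma adjusted p = 0.00236), to a mean of 50.8 ± 10.7 FPKM in LPS, against 14.9 ± 4.42 FPKM in Control (SD, n = 3 each). It held the highest mean of the 31 genes in LPS+EVs and in LPS, while in Control Fdps did, at 57.5 ± 19.8 FPKM (SD, n = 3).

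Scap encodes the escort protein that carries the SREBPs to the Golgi. Scap had 9.34, 5.59 and 13.2 FPKM in LPS+EVs, 12.3, 4.17 and 13.4 FPKM in LPS, and 16.2, 18.8 and 17.5 FPKM in Control. The treated libraries all lay below the Control libraries, and the libraries numbered 2 were the lowest of the treated ones. The difference in LPS was -0.89 (SE 0.40, limma adjusted p = 0.107). With the replicate number as a block the adjusted p was 0.0337.

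The promoters of Insig1, which rose in LPS cultures, and of Srebf1, Dhcr7 and Mvk, which fell, are printed here. Their calls were among the 7 that held under all 14 alternative settings. Fasn and Acaca, also among the 7, had no matched promoter. The promoter of Scd, the last of the 7, held none of the motifs searched and is not printed. The sequences are from RefSeq on build GRCr8, run 5′ to 3′ on the strand of the gene from 250 bases before to 50 bases after the start site, and carry in capitals the matches to CCAAT (the NF-Y motif), GGGCGG (the Sp1 motif) and CACGTG (an E-box) on either strand. Adjacent GGGCGG matches may overlap, as the pair in Dhcr7 does by 1 base. Insig1 lies at chr4:8057720-8058019 on the minus strand, the upstream and downstream Srebf1 starts at chr10:45529115-45529414 and chr10:45518961-45519260 on the minus strand, Dhcr7 at chr1:208444184-208444483 on the plus strand and Mvk at chr12:47819454-47819753 on the minus strand.
Insig1: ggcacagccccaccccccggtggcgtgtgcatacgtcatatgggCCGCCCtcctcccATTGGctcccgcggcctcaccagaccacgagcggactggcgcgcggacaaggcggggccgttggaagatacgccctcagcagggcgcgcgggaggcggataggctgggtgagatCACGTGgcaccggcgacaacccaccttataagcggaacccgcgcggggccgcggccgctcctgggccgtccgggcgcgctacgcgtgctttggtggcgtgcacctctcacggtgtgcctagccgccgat
Srebf1 upstream start: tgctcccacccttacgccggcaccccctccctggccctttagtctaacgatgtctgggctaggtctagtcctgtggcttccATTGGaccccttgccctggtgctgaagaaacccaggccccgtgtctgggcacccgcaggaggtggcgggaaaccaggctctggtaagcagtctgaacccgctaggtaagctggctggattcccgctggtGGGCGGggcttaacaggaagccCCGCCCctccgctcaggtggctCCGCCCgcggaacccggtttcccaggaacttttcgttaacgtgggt
Srebf1 downstream start: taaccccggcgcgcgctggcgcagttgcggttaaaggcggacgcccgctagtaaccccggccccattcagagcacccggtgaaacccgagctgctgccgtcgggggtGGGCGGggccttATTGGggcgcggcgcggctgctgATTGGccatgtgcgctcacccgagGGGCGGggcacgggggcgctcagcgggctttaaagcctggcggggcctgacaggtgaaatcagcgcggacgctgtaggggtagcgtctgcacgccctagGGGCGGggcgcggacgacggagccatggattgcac
Dhcr7: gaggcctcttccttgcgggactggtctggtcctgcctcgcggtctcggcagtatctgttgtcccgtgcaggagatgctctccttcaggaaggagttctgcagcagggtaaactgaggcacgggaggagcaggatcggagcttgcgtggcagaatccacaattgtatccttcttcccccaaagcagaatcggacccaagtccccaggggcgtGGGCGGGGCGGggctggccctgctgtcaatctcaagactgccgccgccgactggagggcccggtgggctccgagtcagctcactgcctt
Mvk: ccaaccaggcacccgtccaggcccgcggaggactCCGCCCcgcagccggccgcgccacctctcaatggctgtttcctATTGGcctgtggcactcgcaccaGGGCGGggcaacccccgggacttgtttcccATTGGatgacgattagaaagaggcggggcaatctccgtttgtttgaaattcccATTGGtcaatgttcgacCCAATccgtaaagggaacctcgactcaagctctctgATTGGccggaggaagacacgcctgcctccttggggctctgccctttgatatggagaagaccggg

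RefSeq promoters were matched for 24 of the 31 genes, 25 promoters in all. None was matched for Fasn, Acaca, Elovl6, Fdft1, Pmvk, Sqle and Stard4, so the motif counts leave these genes out. CCAAT was present in 19 of the 25 (76%), where 37.5% of the 33469 rat promoters of this length hold it, and GGGCGG in 20 (80%), where 33.1% do. Among promoters of the genes tested here the shares were 37.8% and 60.8%. CACGTG was present in the promoters of Insig1, Sc5d and Scap (12%, beside 6.42% of all promoters and 9.3% of those of the genes tested). The sterol regulatory element core TCACNCCAC, a longer exact form of that element and the direct repeat of the liver X receptors matched none of the 25, beside 1.12%, 0.125% and 0.00598% of all promoters. Mvk holds 5 CCAAT matches and Dhcr7 none, although both genes fell. Of the 10 fallen genes with a promoter 6 hold CCAAT, and of the other 14 genes 12 do. These are matches of letters in this window and not measured binding.

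Fatty acid synthesis had the largest falls. Fasn, the synthase that builds palmitate, had 1.54, 0.996 and 2.5 FPKM in LPS+EVs, 2.97, 0.721 and 4.54 FPKM in LPS, and 43.3, 37.9 and 30.8 FPKM in Control. The highest treated library lay far below the lowest Control library, while the LPS libraries differed 6.3-fold among themselves, with number 2 the lowest. The fitted difference of LPS against Control was -3.50 on the log2(FPKM + 1) scale (SE 0.40, limma adjusted p = 0.000314).

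Acaca encodes acetyl-CoA carboxylase, which makes the malonyl-CoA that Fasn uses. Acaca had 2.55, 1.56 and 2.52 FPKM in LPS+EVs, 2.97, 1.42 and 3.99 FPKM in LPS, and 18.1, 16.6 and 13.8 FPKM in Control. No treated library came near the Control libraries, and number 2 was again the lowest of both treated groups. Acaca fell in LPS by -2.23 (SE 0.27, limma adjusted p = 0.000394).

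Scd encodes the stearoyl-CoA desaturase that makes oleate. Scd had 4.13, 2.65 and 1.25 FPKM in LPS+EVs, 2.64, 4.12 and 0.96 FPKM in LPS, and 40.7, 6.64 and 16.7 FPKM in Control. The Control libraries differed 6.12-fold among themselves, and the lowest of them still exceeded every treated library. Scd fell in LPS by -2.42 (SE 0.61, limma adjusted p = 0.0136), and by -1.81 without Control replicate 1 (adjusted p = 0.0401). Near-identical desaturase paralogs may share reads with Scd, so its level is uncertain. The related desaturase gene Scd2 had far higher levels, 362 ± 114 FPKM in LPS and 447 ± 56.4 FPKM in Control (SD, n = 3 each). Scd2 was not called in LPS against Control (-0.34, SE 0.26, limma adjusted p = 0.319), so the fall of Scd does not stand for all desaturase RNA.

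Elovl6, which lengthens palmitate to stearate, did not pass the filter on low values, and its values are given because of their size, chosen after they were seen. Elovl6 had 0.23, 0.118 and 0.123 FPKM in LPS+EVs, 0.111, 0.0563 and 0.0371 FPKM in LPS, and 3.98, 0.559 and 1.8 FPKM in Control. These correspond to 56, 27 and 25 reads in LPS+EVs, 27, 13 and 9 reads in LPS, and 988, 116 and 445 reads in Control. The means were 31-fold lower in LPS than in Control, or 17.3-fold without Control replicate 1, and all treated libraries lay below all Control libraries. In a fit without the filter the difference was -1.39 (SE 0.36, limma adjusted p = 0.0311), a scale on which the added value of 1 FPKM understates the change of so low a gene.

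The suppliers of carbon and reductant moved less. Acly, which splits citrate into acetyl-CoA, had 21.4, 13.7 and 22.5 FPKM in LPS+EVs, 26.5, 13.1 and 28.9 FPKM in LPS, and 42.8, 31.9 and 35 FPKM in Control. Its treated and Control libraries did not overlap, and the difference in LPS was -0.72 (SE 0.30, limma adjusted p = 0.0846, or 0.00903 with the replicate block). Acss2, which makes acetyl-CoA from acetate, averaged 0.797 ± 0.277 FPKM in LPS and 1.76 ± 1.11 FPKM in Control (SD, n = 3 each), with overlapping libraries (adjusted p = 0.193, or 0.0227 with the block). Me1, the malic enzyme that yields NADPH, averaged 27.5 ± 12.7 FPKM in LPS and 20.5 ± 7.91 FPKM in Control, again overlapping (limma adjusted p = 0.512). Of the 6 tested genes of acetyl-CoA, NADPH and fatty acid synthesis 3 fell (50%) and none rose, beside 28.7% and 12.3% of all genes, with a median difference of -1.48, beside -0.19. The same count of 3 fell under median-of-ratios scaling (beside 20.3% of all genes) and without Control replicate 1 (beside 19.9%), and 5 fell with the replicate block (83.3%, beside 35.5%).

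**Figure D2:**
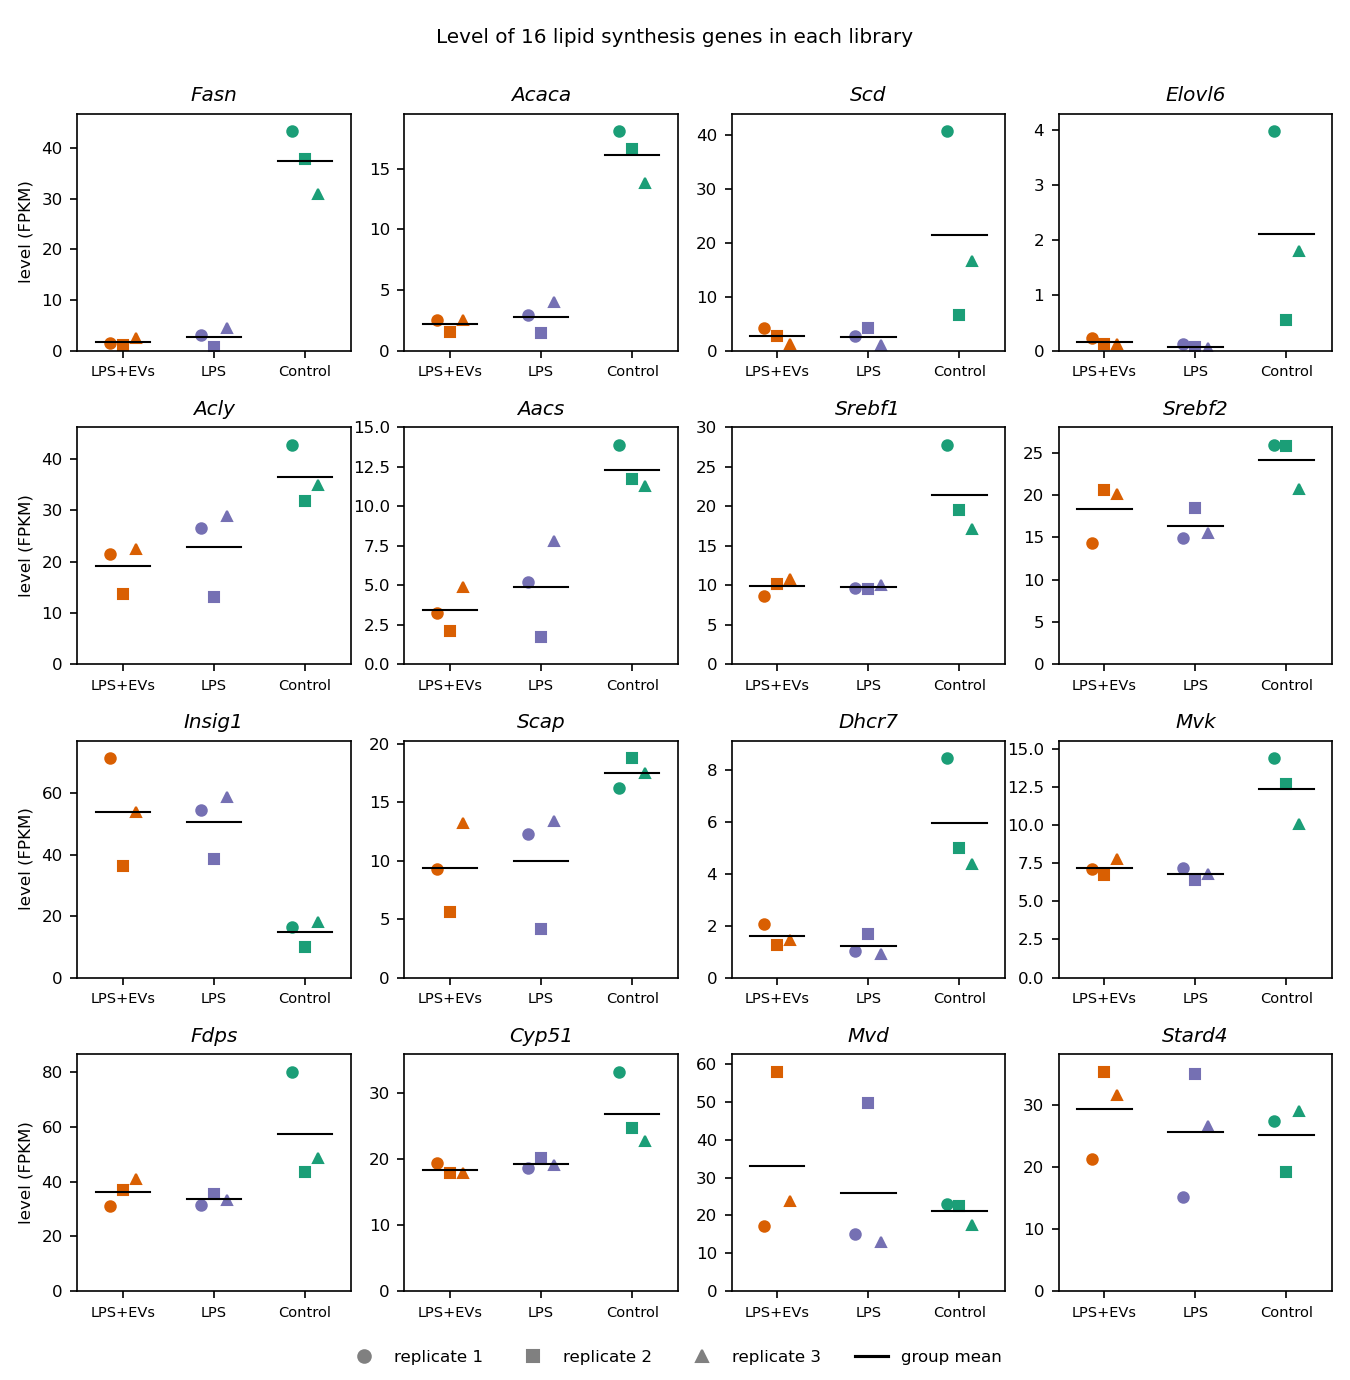
FPKM of selected lipid synthesis genes in each library (points, shaped by replicate number) with the group mean (line), for LPS+EVs, LPS and Control from left to right, on axes that start at 0. Fasn, Acaca and Srebf1 had all 6 treated libraries below the Control libraries, Insig1 had them above, and Mvd was highest in the libraries numbered 2 of both treated groups.

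Within the mevalonate steps, which make the isoprene units, 3 of 6 enzymes fell in LPS against Control (50%, beside 28.7% of all genes) and none rose, with a median difference of -0.48, beside -0.19. Under median-of-ratios scaling 1 of the 6 fell (16.7%, beside 20.3%), and without Control replicate 1 also 1 (16.7%, beside 19.9%). Mvk, the mevalonate kinase, had 7.11, 6.72 and 7.79 FPKM in LPS+EVs, 7.21, 6.43 and 6.81 FPKM in LPS, and 14.4, 12.7 and 10.1 FPKM in Control. The treated libraries were close to each other and all below Control. Mvk fell in LPS by -0.76 (SE 0.14, limma adjusted p = 0.00378).

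Fdps, which joins the isoprene units to farnesyl diphosphate, had 31.1, 37 and 40.8 FPKM in LPS+EVs, 31.5, 35.6 and 33.3 FPKM in LPS, and 80.2, 43.6 and 48.8 FPKM in Control. Control replicate 1 was far above the other Control libraries, which exceeded the highest treated library by a few FPKM. Fdps fell in LPS by -0.71 (SE 0.21, limma adjusted p = 0.0275). The adjusted p was 0.0536 without Control replicate 1, where the difference was -0.45, 0.0774 without LPS replicate 1 and 0.0577 without LPS replicate 3, and the call was lost under median-of-ratios scaling.

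Idi1, the isomerase of the isoprene units, had 1.44 to 1.72 FPKM in LPS and 2.28 to 4.23 FPKM in Control. It fell by -0.61 (SE 0.20, limma adjusted p = 0.0398). The call for Idi1 was lost when any library but Control replicate 2 was left out, with adjusted p of 0.125 without Control replicate 1, 0.0693 without Control replicate 3 and 0.0822, 0.0563 and 0.0935 without LPS replicates 1, 2 and 3. It was lost under median-of-ratios scaling as well. Pmvk, the next kinase after Mvk, had 11 ± 0.907 FPKM in LPS and 14.5 ± 2.17 FPKM in Control (limma adjusted p = 0.056, or 0.0475 with the replicate block). Hmgcs1, which makes the substrate of the rate-limiting reductase, and Mvd, the decarboxylase, overlapped between LPS and Control, with adjusted p of 0.705 and 0.962 by limma.

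Of the 10 tested enzymes from squalene to cholesterol, 3 fell in LPS and none rose, with a median difference of -0.43, beside -0.19 for all genes. Their share of 30% was near the 28.7% of all genes that fell. Under median-of-ratios scaling 1 of the 10 fell (10%, beside 20.3%), and without Control replicate 1 also 1 (10%, beside 19.9%). Dhcr7, the reductase that turns 7-dehydrocholesterol into cholesterol, had 2.05, 1.25 and 1.45 FPKM in LPS+EVs, 1.04, 1.69 and 0.892 FPKM in LPS, and 8.45, 5 and 4.37 FPKM in Control. Every Control library was more than 2 FPKM above the highest treated library. Dhcr7 fell in LPS by -1.62 (SE 0.24, limma adjusted p = 0.00123).

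Cyp51, the demethylase that acts on lanosterol, had 19.5, 17.9 and 17.9 FPKM in LPS+EVs, 18.6, 20.2 and 19.2 FPKM in LPS, and 33.3, 24.7 and 22.8 FPKM in Control. The treated libraries formed a tight band just under the lowest Control library. Cyp51 fell by -0.44 (SE 0.14, limma adjusted p = 0.0382). This call was lost when any library but Control replicate 3 was left out, with adjusted p of 0.113 without Control replicate 1, 0.0576 without Control replicate 2 and 0.1, 0.051 and 0.0748 without LPS replicates 1, 2 and 3. Median-of-ratios scaling also ended it.

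Ebp, the sterol isomerase, had 17.7, 19.7 and 17.5 FPKM in LPS+EVs, 16.5, 19.1 and 15.8 FPKM in LPS, and 26.3, 20.3 and 23 FPKM in Control. The treated libraries lay below Control by a margin smaller than the spread among Control libraries. Ebp fell by -0.41 (SE 0.13, limma adjusted p = 0.0327). Its adjusted p was 0.12 without Control replicate 1, 0.0824 without Control replicate 3, 0.0895 without LPS replicate 1 and 0.0848 without LPS replicate 3, and the call was lost under median-of-ratios scaling.

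The other enzymes of this stretch did not pass in LPS against Control. Fdft1, the squalene synthase, had a difference of -0.77 (limma adjusted p = 0.065, 0.0275 with the replicate block and 0.00466 without LPS replicate 2). Msmo1, the sterol methyl oxidase, had -0.58 (adjusted p = 0.0732, and 0.0412 without Control replicate 2). Tm7sf2, a sterol reductase, and Nsdhl, a dehydrogenase of sterol demethylation, had groups that did not overlap and adjusted p of 0.0969 and 0.194. Sqle, the squalene epoxidase, Lss, the lanosterol synthase, and Sc5d, a sterol desaturase, overlapped between groups, with differences of 0.21, -0.26 and -0.15. Hsd17b7, a sterol ketone reductase, reached 1 FPKM in 1 library, Control replicate 1, and averaged 0.379 FPKM in LPS and 0.896 FPKM in Control.

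Aacs, which makes acetoacetyl-CoA from ketone bodies for lipid synthesis, had 3.23, 2.11 and 4.86 FPKM in LPS+EVs, 5.2, 1.73 and 7.78 FPKM in LPS, and 13.9, 11.7 and 11.3 FPKM in Control. Control libraries were alike and all above the treated ones, which were lowest in number 2. Aacs fell in LPS by -1.32 (SE 0.40, limma adjusted p = 0.0288), with adjusted p of 0.0889, 0.0651 and 0.064 without Control replicates 1, 2 and 3. Lpin1, a phosphatidate phosphatase, had a difference of -0.37 (adjusted p = 0.0578, 0.0382 with the replicate block and 0.0312 without LPS replicate 2). Stard4, a carrier of cholesterol between membranes, averaged 25.5 ± 9.96 FPKM in LPS and 25.2 ± 5.22 FPKM in Control, a difference of -0.03 (limma adjusted p = 0.938). Of these 3 genes 1 fell (33.3%, beside 28.7% of all genes), and with the replicate block 2 (66.7%, beside 35.5%).

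**Figure D3:**
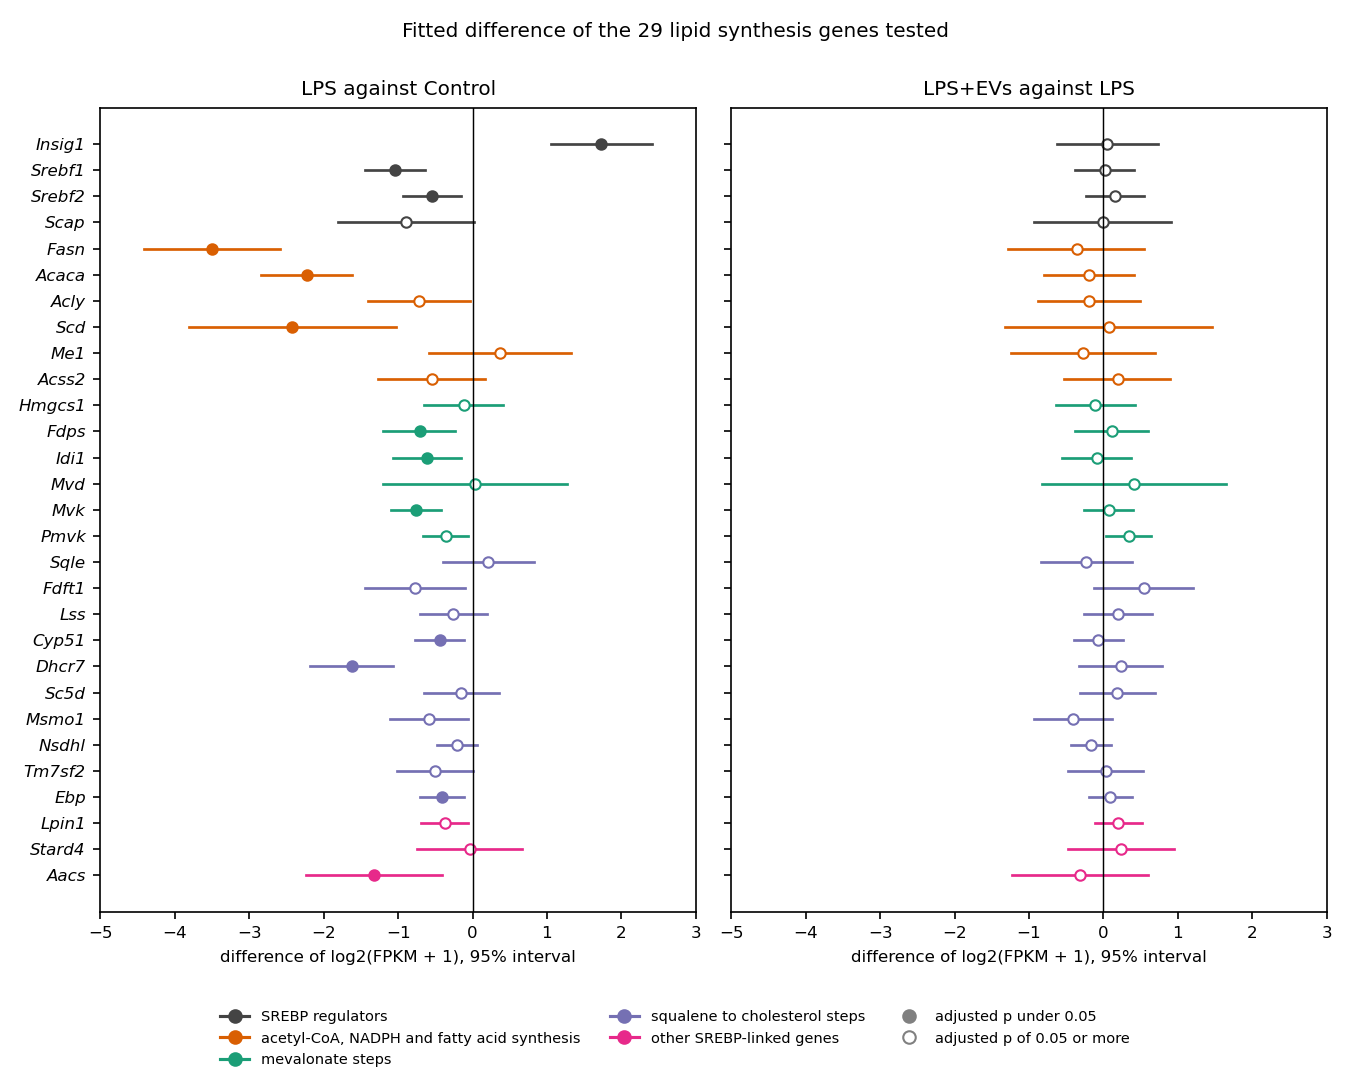
Fitted difference of log2(FPKM + 1) for each of the 29 tested genes (points) with its 95% interval (lines), coloured by role and filled where the adjusted p was under 0.05, for LPS against Control (left) and LPS+EVs against LPS (right). Filled points in the left panel are 12 genes below 0 and Insig1 above it, and no point in the right panel is filled.

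The comparison of LPS+EVs with LPS asks what the vesicles changed in cells that had LPS as well. None of the 29 genes passed limma's test, and 0% of all 11141 genes tested did in either direction. At an unadjusted p under 0.05 there was 1 member (3.45%), beside 295 genes (2.65%), and with the replicate block 1 member beside 600 genes (5.39%). Limma-voom on reads recovered from the FPKM steps gave 0 members and 277 genes (2.49%). The smallest adjusted p of any member over the 14 alternatives was 0.238. Fitted differences ran from -0.41 (Msmo1) to 0.54 (Fdft1), with a median of 0.05 beside -0.01 for all genes, and their 95% intervals spanned -1.32 to 1.65 with a median half-width of 0.53. For each gene, differences within its own interval were not excluded with 3 cultures per group.

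The groups LPS+EVs and LPS did not overlap for 4 tested genes, which are named here after their values were seen: 2 were higher and 2 lower (6.9% each), beside 3.14% and 3.48% of all genes tested. Pmvk had 13.3, 14.6 and 14.7 FPKM in LPS+EVs and 11.8, 11.2 and 10.1 FPKM in LPS, a difference of 0.34 (95% interval 0.04 to 0.64, unadjusted p = 0.0323, limma adjusted p = 0.999). Sc5d had 5.63, 4.62 and 4.64 FPKM in LPS+EVs and 4.18, 4.38 and 4.16 FPKM in LPS. Both sets of LPS+EVs libraries sat just above the LPS libraries. Msmo1 had 6.26, 6.87 and 5.01 FPKM in LPS+EVs and 7.15, 9.55 and 8.37 FPKM in LPS, and Nsdhl had 6.72, 6.41 and 6.09 FPKM in LPS+EVs and 7.7, 7.52 and 6.86 FPKM in LPS. The LPS+EVs libraries of both genes sat just below. Elovl6, below the filter, had 0.118 to 0.23 FPKM in LPS+EVs and 0.0371 to 0.111 FPKM in LPS, without overlap, but its reads did overlap (25 to 56 in LPS+EVs and 9 to 27 in LPS).

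The genes with the largest differences in LPS against Control overlapped between LPS+EVs and LPS. Fasn had a difference of -0.36 with a 95% interval of -1.28 to 0.55, and Acaca one of -0.20 with an interval of -0.80 to 0.41. Scd had 0.07 with an interval of -1.32 to 1.46, and Dhcr7 had 0.23 with an interval of -0.33 to 0.79. Insig1 had 0.05 with an interval of -0.62 to 0.73 and Srebf1 0.02 with an interval of -0.38 to 0.41. For each of these 6 genes both ends of the interval were smaller in size than the difference between LPS and Control.

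Set against Control, LPS+EVs cultures had 13 of 29 genes lower (44.8%) and 1 higher (3.45%), where 30.8% of all genes tested were lower and 13.5% higher (limma). The members' median was -0.39, beside -0.19 for all genes. Groups that did not overlap numbered 17 lower (58.6%) and 1 higher (3.45%), beside 40.6% and 19.6% of all genes. Under median-of-ratios scaling 8 members were lower (27.6%) and 1 higher, beside 22% and 20.1% of all genes, and without Control replicate 1 there were also 8 and 1, beside 22.6% and 9.61%. Without LPS+EVs replicate 2 there were 8 (27.6%) and 1 as well, beside 23.1% and 10.9%. With the replicate block there were 14 lower (48.3%) and 1 higher, beside 37.4% and 17.8% of all genes. This comparison shares the Control libraries with that of LPS, so the 10 genes called lower in both are no independent result. They were Aacs, Acaca, Cyp51, Dhcr7, Fasn, Fdps, Idi1, Mvk, Scd and Srebf1.

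Side by side, Fasn had -3.86 in LPS+EVs against Control and -3.50 in LPS against Control, Acaca -2.43 and -2.23, Scd -2.35 and -2.42, Dhcr7 -1.39 and -1.62, Srebf1 -1.02 and -1.04, and Insig1 1.78 and 1.73. Called in LPS+EVs against Control alone were Msmo1 (-0.99, SE 0.23, limma adjusted p = 0.00886), Acly (-0.92, SE 0.30, 0.0359) and Nsdhl (-0.38, SE 0.12, 0.0293). Called in LPS against Control alone were Ebp and Srebf2, which had adjusted p of 0.0751 and 0.091 in LPS+EVs against Control. None of these 5 genes passed in LPS+EVs against LPS, so a difference between the treatments was not shown for them. The Msmo1 call held under all 14 alternatives. The Acly call was lost without any single library but LPS+EVs replicate 3 (adjusted p 0.0574 to 0.114), and that of Nsdhl without any but Control replicate 2 (0.0535 to 0.116). The calls of Fdps, Cyp51 and Idi1 were lost without Control replicate 1 (adjusted p = 0.107, 0.0575 and 0.0684), without LPS+EVs replicate 2 (0.0904, 0.0601 and 0.0715) and without LPS+EVs replicate 3 (0.0567, 0.0537 and 0.0606). That of Fdps was also lost without Control replicate 3 (0.0628) and without LPS+EVs replicate 1 (0.143). Median-of-ratios scaling ended the calls of Acly, Nsdhl, Fdps, Cyp51 and Idi1.

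**Figure D4:**
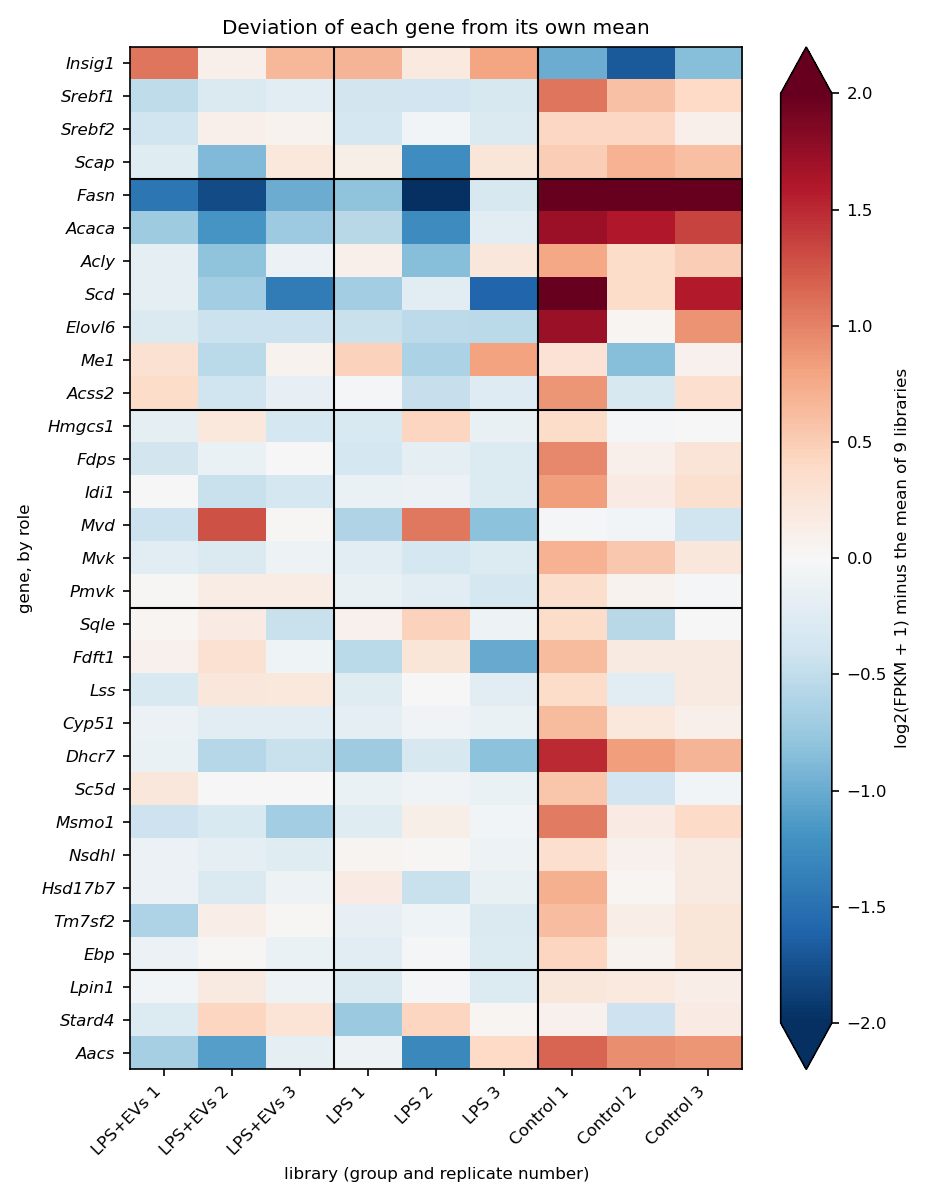
Deviation of log2(FPKM + 1) from the mean of the 9 libraries for each of the 31 genes (rows, grouped by role) in each library (columns), on a colour scale limited to -2 and 2. Fasn, Acaca and Scd are high in Control and low in the treated libraries, Insig1 is the reverse, and Control replicate 1 holds the highest Control value for 28 genes.

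Other genes of lipid metabolism give the surroundings of these results. Of 49 further genes of sterol and fatty acid metabolism, 43 were tested, of which 12 fell and 5 rose in LPS against Control, with a median difference of -0.34, beside -0.19 for all genes. These shares, 27.9% and 11.6%, were near the 28.7% and 12.3% of all genes tested. Lbr, a lamin receptor that is also a sterol reductase, averaged 5.99 ± 1.64 FPKM in LPS and 25.4 ± 2.58 FPKM in Control (difference -1.94, limma adjusted p = 8.79e-05). Acsl3, which activates fatty acids, averaged 1.85 ± 0.663 FPKM in LPS and 8.23 ± 0.968 FPKM in Control (-1.72, adjusted p = 0.00029). In mean FPKM these were 4.24-fold and 4.45-fold lower, beside 4.91-fold for Dhcr7. Tecr, the last reductase of fatty acid elongation, fell by -1.19 (adjusted p = 0.000649) and Mbtps1, the protease that makes the first cut in SREBPs, by -1.06 (adjusted p = 0.0017). None of the 43 passed limma's test in LPS+EVs against LPS. Set against Control, LPS+EVs cultures had 14 of them lower (32.6%) and 5 higher (11.6%), beside 30.8% and 13.5% of all genes, led by the same 4 genes at -2.23 for Lbr, -1.93 for Acsl3, -1.08 for Mbtps1 and -0.85 for Tecr. Without Control replicate 1 the falling genes numbered 7 in LPS+EVs (16.3%, beside 22.6% of all genes) and 4 in LPS (9.3%, beside 19.9%).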

How the data were processed

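RNA from 9 rat cultures was analysed, grouped by the sample labels. The authors deposited FPKM per gene, and per the submitters' processing notes fastp, HISAT2, HTSeq, R 3.2.0 and the build mRatBN7.2 were used, with settings not given in the sources used here. Steps in the FPKM values were read back as whole reads (tolerance 0.002 reads) for every one of the 18833 genes with reads in 2 or more libraries, which set the depths and fed limma-voom. Counting error was not modelled in the FPKM test.

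Genes with at least 1 FPKM in 3 libraries (11141) were kept, 1 was added before log2, and limma 3.58.1 in R 4.3.3 (limma-trend, all 9 libraries, 1 mean per group) gave two-sided p-values, adjusted by Benjamini-Hochberg over all genes tested, with a threshold of 0.05. A fold on this scale understates changes of low genes. On simulated data, the reading of whole reads returned 99.98% of 5853 genes, judged after division by any factor common to all libraries of a gene. Reads too low by such a factor would not have been seen. The limma fit was also run on simulated data, with independent variation in each library. That run did not cover variation shared by libraries with the same replicate number. Symbols were used as deposited. Whether counting used strand is not stated, and reads shared by near-identical copies (Scd, Fdps and Cyp51 may have such copies) or overlapping genes could shift a level.

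The members and lists were chosen with earlier results of these data known. Values per library are given for the 12 members with the smallest adjusted p in LPS against Control and the 4 regulators, and others are named by count or as said. Of other pathway genes, up to 4 with the smallest adjusted p are named per comparison. In LPS+EVs against LPS these were tied, so none is named. Scd2 is named beside Scd as a related desaturase gene, after its values were seen. After removal of group means, libraries with the same replicate number correlated at 0.284 to 0.863 across groups. Those with different numbers correlated at -0.745 to 0.426, so the ranges overlapped. The labels do not say what the number marks, so the main test held no block. A fit with the replicate number as a block was run as an alternative.

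Alternatives were an added value of 0.1, no filter, median-of-ratios scaling, the replicate block, both together, the 6 compared libraries alone, libraries numbered 1 and 3 alone, limma-voom, and each library left out in turn. Promoters came from RefSeq (GRCr8), and no coordinates were converted. Tables were read in Python 3.11.15 with numpy 2.4.6 and pandas 2.3.3, and plots were drawn with matplotlib 3.10.9.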

Additional observations from a re-analysis of the deposited data

How the results depend on the processing

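The calls of Dhcr7, Mvk, Insig1, Srebf1, Fasn, Acaca and Scd in LPS against Control held under all 14 alternatives, and none of the 29 members was called in LPS+EVs against LPS under any. In LPS against Control, median-of-ratios scaling gave 7 falling members (24.1%) in place of 12 and 6 falling other pathway genes (14%) in place of 12. The share of all genes that fell was then 20.3% in place of 28.7%. Without a filter, 3 other pathway genes rose in place of 5 and 7 fell, and the share of all genes in that fit is not given here. Median-of-ratios scaling together with the replicate block gave 2 rising members, as Me1 passed (limma adjusted p = 0.0179), and 8 rising other pathway genes. Of all genes 24.7% rose in that setting, in place of 12.3%. In LPS+EVs against Control, median-of-ratios scaling gave 8 falling members (27.6%) in place of 13 and 8 falling other pathway genes (18.6%) in place of 14. The share of all genes there was 22% in place of 30.8%.

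With one library left out at a time, falling members numbered 6 to 12 and the members' median was -0.61 to -0.35 in LPS against Control, with 3 to 4 other pathway genes rising and 4 to 11 falling. The background moved as well. Of all genes 19.9% fell and 8.28% rose without Control replicate 1, 23.8% and 8.93% without LPS replicate 1, and 28.5% and 11.3% without LPS replicate 3. Against Control, LPS+EVs had 8 to 12 members lower, with 3 to 5 other pathway genes higher and 7 to 13 lower. There 22.6% of all genes were lower and 9.61% higher without Control replicate 1, and 23.1% and 10.9% without LPS+EVs replicate 2. The members' median was -0.03 to 0.08 in LPS+EVs against LPS.

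Some uncalled differences changed sign. In LPS against Control, median-of-ratios scaling, alone and with the replicate block, gave 0.08 for Hmgcs1, 0.04 for Sc5d and 0.18 for Stard4. Libraries numbered 1 and 3 alone gave -0.19 for Sqle and -0.50 for Mvd, and -0.02 for Srebf1 in LPS+EVs against LPS. There Scap was 0.00 with an added value of 0.1 and 0.01 under both scalings. With one library left out, Hmgcs1 ran from -0.34 to 0.03, Mvd from -0.55 to 0.39, Sc5d from -0.36 to 0.11, Sqle from -0.03 to 0.43 and Stard4 from -0.29 to 0.29 in LPS against Control. For LPS+EVs against LPS, Aacs ran from -0.79 to 0.05, Acaca from -0.49 to 0.03, Insig1 from -0.17 to 0.31, Scap from -0.48 to 0.28, Scd from -0.31 to 0.38 and Srebf1 from -0.05 to 0.1. The cause was not tested, and no alternative reversed a called difference.

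With the replicate block 18 members fell in LPS against Control (62.1%, beside 35.5% of all genes). In LPS+EVs against Control 14 fell (48.3%, beside 37.4%), and Scap passed there (limma adjusted p = 0.0309). Beside the calls given with their genes, the replicate block changed no other call among the members. With 3 cultures per group, the calls of Aacs, Cyp51, Ebp, Fdps, Idi1 and Srebf2 in LPS against Control each depended on single libraries. Without a filter the calls of Aacs, Cyp51, Fdps, Idi1 and Srebf2 were lost too, and with the 6 compared libraries alone those of Cyp51, Ebp, Fdps and Idi1.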

Other observations

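Within the treated groups the libraries numbered 2 were high for some members and low for others. Number 2 was the highest library of both LPS+EVs and LPS for 11 of the 31 genes (35.5%, beside 20.1% of all genes tested) and the lowest of both for 10 (32.3%, beside 42.3%). The 11 genes were Hmgcs1, Mvd, Sqle, Fdft1, Lss, Msmo1, Tm7sf2, Ebp, Srebf2, Lpin1 and Stard4, and the first 8 are enzymes of cholesterol synthesis. The 10 genes included Fasn, Acaca, Acly, Me1 and Acss2 of fatty acid synthesis, with Insig1, Scap, Aacs, Mvk and Hsd17b7. Of the 17 cholesterol enzymes 8 were in the first set, 2 in the second and 7 in neither, of the 7 fatty acid genes none, 5 and 2, and the regulators and the other genes were in both sets. These genes were sorted after their values were seen, and this order was not tested.

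Mvd, which decarboxylates mevalonate diphosphate, stood out most in this way. Mvd had 17.2, 58 and 23.8 FPKM in LPS+EVs, 15.1, 49.7 and 12.9 FPKM in LPS, and 23.1, 22.5 and 17.5 FPKM in Control. Its Control libraries were alike, while number 2 exceeded the others in both treated groups. Stard4 had 21.2, 35.3 and 31.5 FPKM in LPS+EVs, 15.1, 35 and 26.5 FPKM in LPS, and 27.4, 19.2 and 28.9 FPKM in Control, where number 2 was the lowest. In the same libraries dendritic cell markers summed to 7706 FPKM in LPS+EVs, 7416 in LPS and 8294 in Control in number 2, the highest of each group, and their lowest sums were 1715, 1303 and 1943 FPKM. Cd74 alone averaged 3010, 2754 and 3403 FPKM in LPS+EVs, LPS and Control. These sums therefore follow Cd74 more than the other dendritic cell markers. Stromal markers were lowest there in each group, at 123 FPKM in LPS+EVs, 84.8 in LPS and 143 in Control, beside highest sums of 808, 676 and 454 FPKM. The part of this in the values was not tested.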
